A study of Mus musculus with 7 samples.

Results

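The genes described here build the centromere and the kinetochore and run the spindle checkpoint. They are the rows of the count table whose symbol starts with Cenp, other than the centriole gene Cenpj, together with a named set of kinetochore and checkpoint genes that had a row under the symbol used; 38 of 23337 genes met this rule, which used names and no measured value. RNA was sequenced from sorted mouse heart muscle cells (cardiomyocytes) at postnatal day 30 (P30, 3 libraries) and postnatal day 6 (P6, 4 libraries). Mice of both ages carried a Rosa-Tom or a Rosa-Cas9 allele, given per library only as Rosa-Tom/Cas9, and received AAV9-cTNT-Cre at P1. In this virus the cTNT promoter (cardiac troponin T) drives Cre, which limits recombination to cells that use that promoter. Time since injection moves with age, and their effects cannot be told apart. Titles, ages and the series' design give P30 and P6, whereas the treatment text gives collection at P14; the ages in the titles were used. Whether libraries came from separate animals is not stated, so the p-values rest on library-to-library spread that could be technical.

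As background, each chromosome is held by the mitotic spindle at its centromere, where nucleosomes contain the histone H3 variant CENP-A. A constitutive network of CENP proteins sits on this chromatin and recruits the outer kinetochore, whose NDC80 complex binds microtubule ends. Kinetochores that are not attached activate the spindle checkpoint, which holds back the anaphase-promoting complex until every chromosome is attached. Mouse cardiomyocytes largely stop dividing during the first weeks after birth, and many become binucleated in that time.

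Total counts ran from 15555469 to 19368717 in the P30 libraries and from 10594932 to 51427646 in the P6 libraries. Levels are given as CPM, counts scaled to a common library size with TMM factors (edgeR's correction for composition), with values in the order P30a to P30c and P6a to P6d. A count of 3 corresponded to 0.167 to 0.210 CPM in P30 libraries and 0.0553 to 0.271 CPM in P6 libraries, and it is a limit of counting error only. Cardiomyocyte markers (9 genes, among them Myh6 and Tnnt2) summed to 121443 to 129692 CPM at P30 and 84144 to 104382 CPM at P6. Myh6 was the largest part of this sum, with means of 57300 CPM at P30 and 33636 CPM at P6, whereas Tnnt2 had 9346 and 9795 CPM. By the test used below 4 of the 9 genes were higher and 0 lower, against 26.3% and 27.8% of all genes tested. Markers of other cells were present at low levels: 8 endothelial genes summed to 328 to 632 CPM at P30 and 109 to 225 CPM at P6, and 8 macrophage and leukocyte genes to 13.1 to 42.2 CPM at P30 and 2.32 to 5.32 CPM at P6. Of these, 7 endothelial and 6 leukocyte genes were higher at P30 by the test used below. Sums for 8 fibroblast genes, 137 to 313 CPM at P30 and 158 to 391 CPM at P6, overlapped between ages, as did those of 7 smooth muscle and pericyte genes, 972 to 1815 CPM at P30 and 975 to 2187 CPM at P6. Acta2 made up most of the smooth muscle sum, with means of 1186 CPM at P30 and 1456 CPM at P6. By the same test 4 of these 7 genes, Pdgfrb, Kcnj8, Myh11 and Rgs5, were higher at P30. Of 7 fibroblast genes tested, 1 (Postn) was lower and 0 were higher. Epicardial markers (4 genes) stayed at 4.24 to 6.10 CPM at P30 and 1.36 to 7.19 CPM at P6, and 4 Schwann and neural genes at 2.68 to 4.59 CPM at P30 and 3.43 to 4.43 CPM at P6. Among erythroid markers Hba-a1 and Hba-a2 had no count at either age, and the 4 genes found summed to at most 0.517 CPM at P30 and 1.33 CPM at P6.

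All 38 genes passed the filter on low counts, and 31 were lower and 1 was higher at P30 (quasi-likelihood F test of edgeR, with p adjusted by Benjamini-Hochberg over 12561 genes and called under 0.05). Of all genes tested, 27.8% were lower and 26.3% were higher by the same rule. The fall was at least 2-fold in 27 of the 38, against 12.4% of all genes, and at least 4-fold in 21, against 4.35% of all genes. The median log2 fold change (P30 over P6) was -2.55 for the 38 genes and -0.02 for all genes tested. Every P30 library lay below every P6 library for 31 of the 38 genes, against 28.8% of all genes tested. In these bulk samples, fewer cells that contain a transcript and less of it per cell cannot be told apart.

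The fall was not uniform, and the genes ranged from Ska1, at 1.36% of its P6 level, to Cenpb, at 158% of it. Summed over the 38 genes the level was 275, 295 and 263 CPM at P30, against 567, 593, 690 and 676 CPM at P6. What remained at P30 was concentrated in few genes: Bub3, Cenpb, Zwint, Cenpa and Cenpf made up 65.8% ± 0.299 (SD, n = 3) of the sum at P30 and 41.2% ± 1.51 (SD, n = 4) at P6. These 5 were picked as the highest at P30, so the share is a description. The plot of levels by library shows the genes in the order of their roles.

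**Figure D1:**
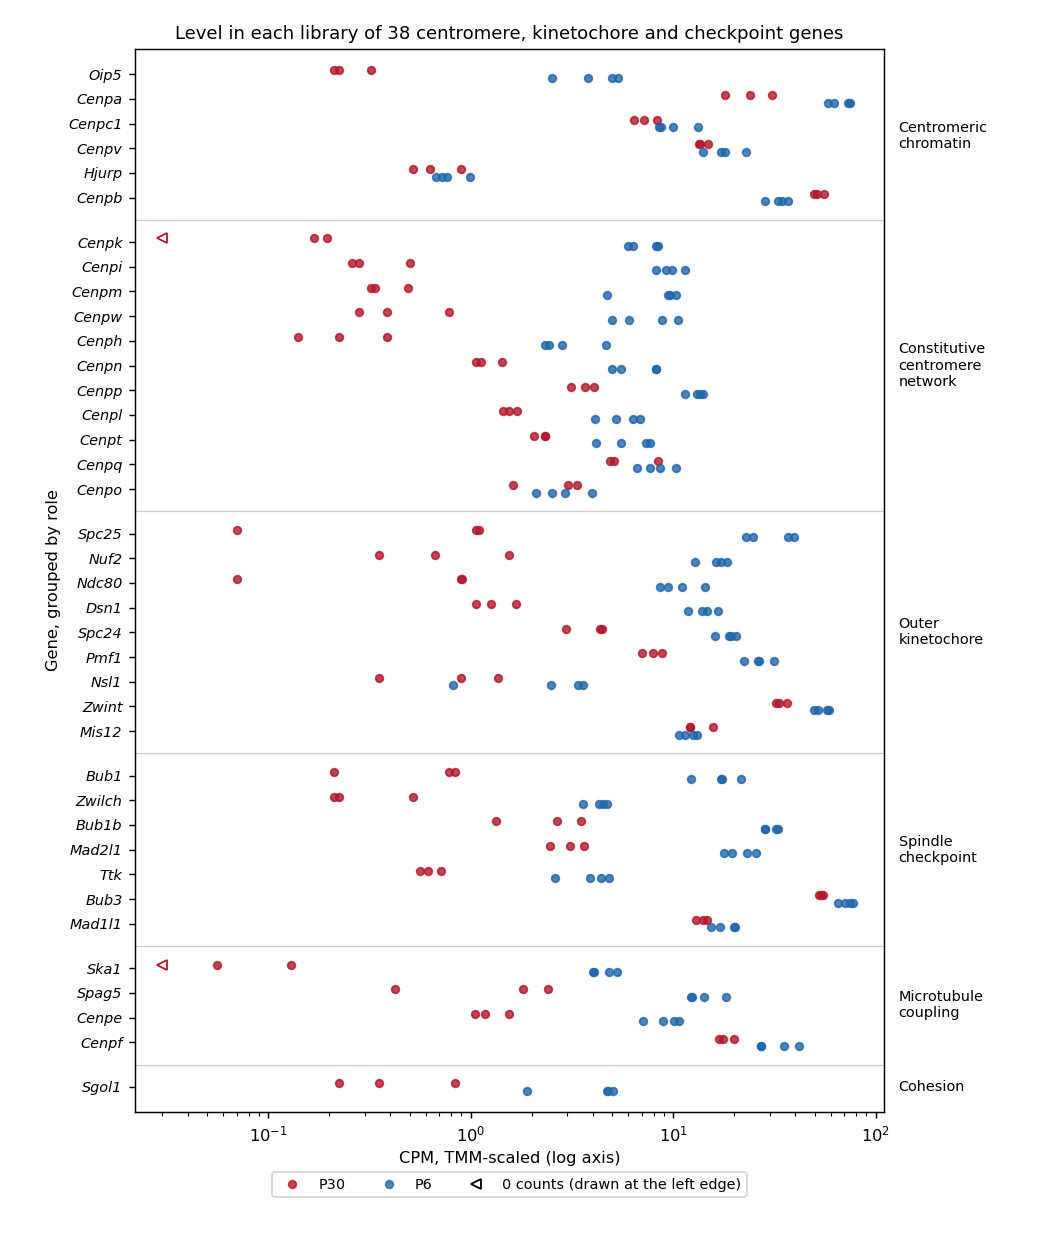
Level of each of the 38 genes in every library (CPM, log axis), grouped by role and ordered by fold change; red points are the 3 P30 libraries, blue points the 4 P6 libraries, and open triangles a library with 0 counts. Most rows part into P30 on the left and P6 on the right, while Cenpb is the row with P30 on the right.

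The promoters of 4 genes are printed because they span the range of responses: Spc25, among the largest falls, Ttk, with a middling one, Cenpa, the CENP gene with the highest P6 level, and Cenpb, the gene that rose. Each is the RefSeq window (GRCm38.p6) of 250 bases before to 50 bases after the transcript start, 5′ to 3′ on the gene's strand. Capitals mark matches on either strand to TTTGAA (the cell cycle genes homology region, or CHR, a site known from promoters of mitotic genes), CCAAT (the CCAAT box) and TTTGGCGC or TTTCCCGC (E2F sites).
Spc25 (chr2:69206164-69206463, minus strand): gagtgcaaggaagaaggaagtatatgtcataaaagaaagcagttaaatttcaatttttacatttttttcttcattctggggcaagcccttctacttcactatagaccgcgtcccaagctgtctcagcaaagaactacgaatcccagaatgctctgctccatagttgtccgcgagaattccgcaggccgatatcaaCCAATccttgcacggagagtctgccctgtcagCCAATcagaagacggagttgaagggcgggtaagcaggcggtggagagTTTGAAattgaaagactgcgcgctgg
Ttk (chr9:83834439-83834738, plus strand): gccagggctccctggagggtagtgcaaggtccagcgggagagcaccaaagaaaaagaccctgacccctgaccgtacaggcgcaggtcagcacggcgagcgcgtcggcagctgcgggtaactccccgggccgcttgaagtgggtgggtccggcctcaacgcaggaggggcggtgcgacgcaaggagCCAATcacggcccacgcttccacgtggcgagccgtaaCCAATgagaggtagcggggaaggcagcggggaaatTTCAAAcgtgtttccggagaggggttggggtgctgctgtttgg
Cenpa (chr5:30666636-30666935, plus strand): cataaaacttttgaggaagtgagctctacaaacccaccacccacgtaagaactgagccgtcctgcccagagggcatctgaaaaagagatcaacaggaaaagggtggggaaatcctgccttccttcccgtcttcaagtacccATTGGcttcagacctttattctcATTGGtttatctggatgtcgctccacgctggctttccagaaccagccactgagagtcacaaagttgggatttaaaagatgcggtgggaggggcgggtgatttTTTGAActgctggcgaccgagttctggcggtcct
Cenpb (chr2:131180018-131180317, minus strand): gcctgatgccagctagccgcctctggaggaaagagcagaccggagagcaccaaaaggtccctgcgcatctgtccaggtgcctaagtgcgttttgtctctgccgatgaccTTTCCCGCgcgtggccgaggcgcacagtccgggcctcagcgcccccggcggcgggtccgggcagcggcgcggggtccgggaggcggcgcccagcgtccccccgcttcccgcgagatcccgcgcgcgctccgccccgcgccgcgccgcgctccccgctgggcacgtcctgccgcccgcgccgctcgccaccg
In Spc25 the CCAAT matches begin 55 and 23 bases before the start and TTTGAA at base 25 after it. In Ttk they begin 65 and 28 bases before the start, with the reverse form TTCAAA at base 8 after it, and Cenpa has TTTGAA at base 17. The Cenpb window holds an E2F match that begins 141 bases before the start, and the letters of the CHR and of the CCAAT box are not in it.

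RefSeq windows were matched by symbol for 33 of the 38 genes (37 windows, since some genes have several starts); Zwilch, Nsl1, Ska1, Spc24 and Sgol1 had no match. TTTGAA was in 15 of the 37 windows (40.5%), against 17.9% of 32841 windows of the same length from all genes. CCAAT was in 26 (70.3%), against 37.4% of all windows, and an E2F match in 4 (10.8%), against 1.57% of all windows. Of 14 genes with TTTGAA, 13 also had CCAAT, and in 12 of the 14 a TTTGAA match began within 50 bases of the start. Matches of different motifs overlapped once, by a base in Cenpw. The letters were also present in genes that changed little, and absent from some that fell far. Of the genes lower by at least 16-fold that had a window, Cenpk, Bub1, Cenpi, Cenpm and Nuf2 had no TTTGAA, while Oip5, Spc25 and Ndc80 had it. Nuf2 and Mad2l1, both lower at P30, had no match to any of these motifs. TTTGAA stood in 8 of 19 windows (42.1%) of genes lower by at least 4-fold and in 3 of 5 (60.0%) of those lower by 2-fold to 4-fold. Of the genes that fell by less than 2-fold, rose or did not pass the test, 4 of 13 windows (30.8%) held it. Hjurp and Bub3 were among them, and the windows of Bub3 overlap and hold the same match. These shares describe letters, not binding.

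Genes of centromeric chromatin and of CENP-A loading split. Of 6, Cenpa and Oip5 were lower, Cenpb was higher, and Cenpc1, Cenpv and Hjurp did not pass the test. With so few genes, these counts are near the shares of all genes tested (27.8% lower and 26.3% higher). Cenpa, which encodes the centromeric histone itself (chromosome 5, 30666777 to 30674830, plus strand, GRCm38), had 24.0, 30.6 and 18.03 CPM at P30, against 62.2, 58.4, 73.2 and 75.1 CPM at P6. The ages did not overlap, but 36.0% of the P6 level was left at P30, and the log2 fold change was -1.47 ± 0.18 (SE; edgeR adjusted p = 0.000117). Oip5, the Mis18-beta subunit of the complex that marks centromeres for CENP-A loading, had 0.223, 0.323 and 0.210 CPM at P30, against 2.53, 3.80, 5.35 and 4.98 CPM at P6 (log2 fold change -4.03 ± 0.41, edgeR adjusted p = 4.5e-05). All P30 values of Oip5 were near the level of 3 counts, and Oip5 shares exon sequence with Nusap1 on the opposite strand, at 0.721 ± 0.509 CPM at P30 and 14.1 ± 4.24 CPM at P6. Hjurp, the chaperone that delivers CENP-A, was low at both ages, with 0.893, 0.517 and 0.631 CPM at P30 and 0.724, 0.766, 0.995 and 0.675 CPM at P6. Its ranges overlapped and its log2 fold change of -0.24 ± 0.38 did not pass the test (edgeR adjusted p = 0.617).

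Cenpb, which binds a motif in the satellite repeats of centromeres (chromosome 2, 131175182 to 131180067, minus strand), had 51.4, 55.9 and 49.5 CPM at P30, against 34.6, 36.8, 32.8 and 28.4 CPM at P6. Every P30 library was above every P6 library, and the log2 fold change was 0.65 ± 0.11 (edgeR adjusted p = 0.000852). Cenpc1, which encodes CENP-C, the bridge between CENP-A nucleosomes and the outer kinetochore, had 6.42, 8.27 and 7.16 CPM at P30 and 13.2, 9.96, 8.48 and 8.69 CPM at P6. The ages did not overlap, yet the change of -0.46 ± 0.20 did not pass the test (edgeR adjusted p = 0.0742), and it passed when library totals replaced TMM factors (-0.64, edgeR adjusted p = 0.022). Cenpv, a protein of centromeres and the spindle midzone, had 13.6, 14.9 and 13.4 CPM at P30 and 17.3, 14.1, 18.03 and 23.0 CPM at P6. Its ranges overlapped; the change of -0.37 ± 0.17 (edgeR adjusted p = 0.0928) passed with library totals (-0.54, edgeR adjusted p = 0.0171) and without P6b (-0.47, edgeR adjusted p = 0.0235).

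The constitutive centromere network fell widely: 9 of its 11 genes were lower at P30, all by at least 2-fold, with a median log2 fold change of -2.49. In the CENP-H, I, K and M group, which links CENP-C to the rest of the network, Cenpk had 0.167, 0.194 and 0 CPM at P30, against 5.97, 6.36, 8.20 and 8.44 CPM at P6. These P30 values rest on 6 reads in all, against 802 at P6, and pooled over libraries the P30 level was 1.68% of that at P6 (95% exact interval of counting error 0.616% to 3.68%). Cenpi, Cenpm and Cenph had log2 fold changes of -4.75 ± 0.29, -4.48 ± 0.38 and -3.56 ± 0.47. In the pair CENP-L and N, which contacts the CENP-A nucleosome, Cenpn fell by 2.49 ± 0.29 on the log2 scale and Cenpl had a log2 fold change of -1.85 ± 0.26. Of the histone-fold proteins CENP-T and CENP-W, Cenpw fell by 3.92 ± 0.42 and Cenpt by 1.49 ± 0.27, so that Cenpt kept 36.2% of its P6 level. The value for Cenpw is uncertain, since stretches of 204 to 345 bases of its transcript match 14 other genes at up to 97.3% identity and reads may be divided among them.

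The remaining genes of the network, Cenpo, Cenpp and Cenpq, encode subunits of its CENP-O group. Cenpp, the most counted gene of the network at P6, had 3.12, 4.07 and 3.65 CPM at P30, against 11.5, 13.5, 14.0 and 13.1 CPM at P6 (log2 fold change -1.86 ± 0.17, edgeR adjusted p = 2.25e-05). Cenpq had 5.08, 4.85 and 8.42 CPM at P30 and 7.69, 6.63, 10.4 and 8.61 CPM at P6, and Cenpo had 1.62, 3.36 and 3.02 CPM at P30 and 2.53, 2.10, 2.91 and 3.97 CPM at P6. Both overlapped between ages and missed the threshold: the log2 fold change was -0.45 ± 0.25 for Cenpq (edgeR adjusted p = 0.145) and -0.10 ± 0.33 for Cenpo (edgeR adjusted p = 0.812). Cenpq passed without P30c (-0.75, edgeR adjusted p = 0.0278) and with library totals (-0.64, edgeR adjusted p = 0.0456). All 3 share exon sequence with a gene on the opposite strand, and the library kit does not mark strand. Cenpq overlaps Mut, an enzyme of propionate breakdown that had 313 ± 10.1 CPM at P30 and 134 ± 5.22 CPM at P6. Cenpp overlaps Ippk, at 18.9 ± 1.98 CPM at P30 and 14.5 ± 2.18 CPM at P6, and Cenpo overlaps Adcy3, at 1.98 ± 0.482 CPM at P30 and 2.05 ± 0.613 CPM at P6, and Ptrhd1. How many reads these genes exchange was not tested.

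**Figure D2:**
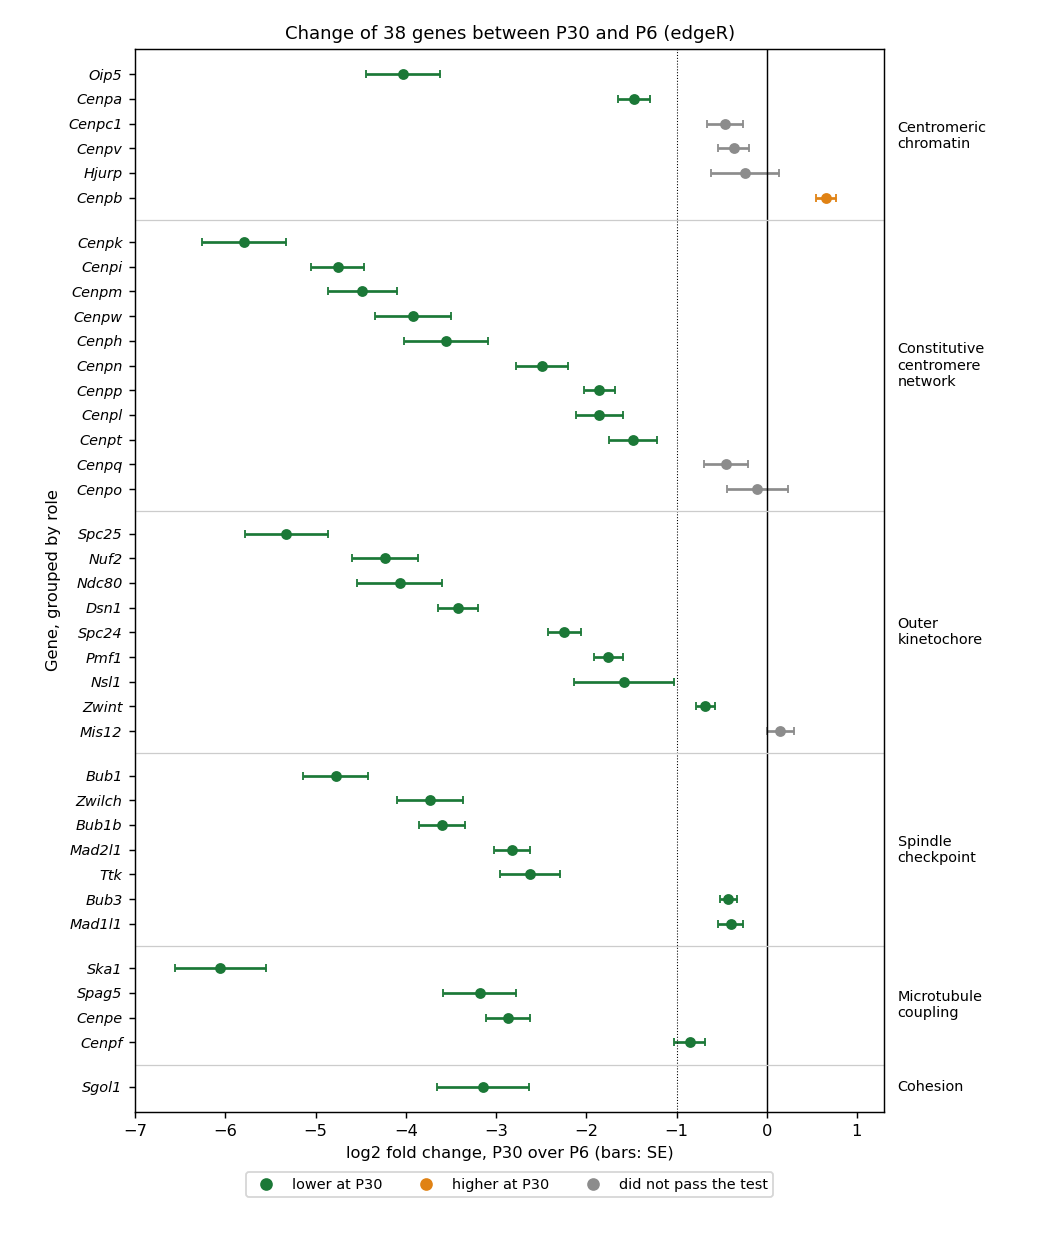
Log2 fold change (P30 over P6) of each gene with its SE, grouped by role; green marks genes lower at P30, orange higher, grey not past the test, and the dotted line a 2-fold fall. Every role group with more than 1 gene holds genes near 0 beside genes beyond -3, except that the smallest change in microtubule coupling is that of Cenpf at -0.85.

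Outer kinetochore genes were lower in 8 of 9 cases, with a median log2 fold change of -2.24. All 4 subunits of the NDC80 complex, the microtubule-binding rod, fell. Spc25 had 1.06, 1.10 and 0.0701 CPM at P30, against 24.7, 22.9, 39.3 and 36.7 CPM at P6 (log2 fold change -5.32 ± 0.46, edgeR adjusted p = 1.8e-05). Its partner Spc24 fell less, to 3.92 ± 0.844 CPM at P30 against 18.6 ± 1.87 CPM at P6. The microtubule-binding heads Ndc80 and Nuf2 had log2 fold changes of -4.07 ± 0.47 and -4.23 ± 0.37; without P30b the value for Nuf2 was -4.94. P30c was lowest for Ndc80 and Spc25, each with 1 read there.

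The MIS12 complex ties the outer kinetochore to CENP-C and CENP-T, and its 4 subunit genes spread widely. Dsn1 fell to 1.33 ± 0.316 CPM at P30 against 14.3 ± 1.97 CPM at P6, and Pmf1 to 7.89 ± 0.890 CPM at P30 against 26.6 ± 3.78 CPM at P6. Nsl1 had 0.893, 1.36 and 0.351 CPM at P30 and 0.814, 2.497, 3.58 and 3.38 CPM at P6; P6a lay inside the P30 range. Its log2 fold change of -1.58 ± 0.55 passed the test (edgeR adjusted p = 0.0346), a call lost when P6c, P6d, P30a or P30c was left out (largest edgeR adjusted p 0.103). Mis12 itself had 15.7, 12.2 and 12.1 CPM at P30 and 10.7, 12.6, 13.1 and 11.5 CPM at P6, with a log2 fold change of 0.15 ± 0.15 that missed the threshold (edgeR adjusted p = 0.424) and became -0.034 with library totals. It shares exon sequence with Derl2 on the opposite strand, at 39.1 ± 2.71 CPM at P30 and 31.6 ± 1.91 CPM at P6. Zwint, which docks the checkpoint's RZZ complex on the outer kinetochore, had 32.1, 36.3 and 33.5 CPM at P30, against 51.7, 49.4, 57.6 and 59.1 CPM at P6. The ages were apart, and 62.4% of the P6 level was left (log2 fold change -0.68 ± 0.10, edgeR adjusted p = 0.000479).

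All 7 spindle checkpoint genes were lower at P30, 5 of them by at least 4-fold and Bub3 and Mad1l1 by less than 2-fold. Bub1, the kinase that also marks centromeric chromatin for cohesin protection, had 0.781, 0.840 and 0.210 CPM at P30, against 12.3, 17.2, 21.7 and 17.5 CPM at P6 (log2 fold change -4.78 ± 0.36, edgeR adjusted p = 7.82e-06). Bub1b, the BubR1 subunit of the mitotic checkpoint complex, had 2.68, 3.49 and 1.33 CPM at P30, against 28.5, 33.0, 32.1 and 28.4 CPM at P6 (log2 fold change -3.60 ± 0.26). Mad2l1, which inhibits the activator of the anaphase-promoting complex, kept 14.2% of its P6 level, Ttk, the kinase at the top of the checkpoint, 16.01%, and Zwilch, a subunit of the RZZ complex, 7.39%. GENCODE lists a processed pseudogene that matches 454 bases of the Mad2l1 transcript at 95.4% identity, and another that matches 202 bases of Ndc80 at 95.5% identity, so reads of these genes may be divided between copies.

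Bub3 and Mad1l1, the binding partners of Bub1 and Mad2l1, changed far less. Bub3 had 52.7, 53.5 and 55.1 CPM at P30, against 70.7, 65.5, 75.0 and 77.5 CPM at P6, with no overlap and a log2 fold change of -0.42 ± 0.09 (edgeR adjusted p = 0.00335). Mad1l1 had 12.9, 14.7 and 14.0 CPM at P30, against 17.0, 20.1, 20.2 and 15.4 CPM at P6. Its ages were also apart, but its call (-0.40 ± 0.14, edgeR adjusted p = 0.0348) was lost without the filter on low counts and with P6b, P6c or any P30 library left out (largest edgeR adjusted p 0.120).

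The genes that couple kinetochores to microtubules were lower in 4 of 4 cases. Ska1, a subunit of the complex that tracks shortening microtubule ends, had 0.0558, 0.129 and 0 CPM at P30, against 4.07, 3.995, 5.27 and 4.81 CPM at P6. Only 3 reads stand behind the P30 values, against 508 at P6, and the pooled P30 level was 1.33% of that at P6 (95% exact interval of counting error 0.273% to 3.90%); without P30b the fitted log2 fold change of -6.06 was -6.97. Spag5 (astrin), which stabilises attached kinetochores, fell by 3.18 ± 0.41 and Cenpe, a kinetochore kinesin, by 2.87 ± 0.25 on the log2 scale. Cenpf, a large coiled-coil protein of kinetochores and the nuclear envelope, had 20.1, 16.9 and 17.5 CPM at P30, against 27.0, 27.3, 41.8 and 35.1 CPM at P6. It kept 55.4% of its P6 level, with no overlap between ages (log2 fold change -0.85 ± 0.17, edgeR adjusted p = 0.00243). Sgol1 (shugoshin), the protector of centromeric cohesin, had 0.223, 0.840 and 0.351 CPM at P30, against 1.90, 5.06, 4.76 and 4.73 CPM at P6, a log2 fold change of -3.15 ± 0.51 (edgeR adjusted p = 0.000665), and -3.86 without P30b.

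**Figure D3:**
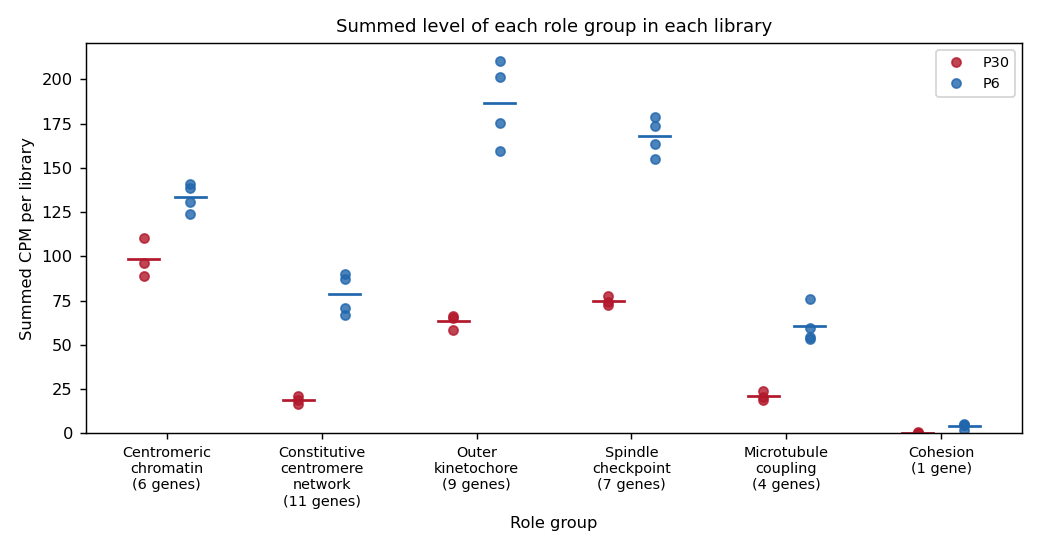
Summed CPM of the genes of each role in every library; red points are P30, blue points P6, and lines the means. The P30 libraries lie below the P6 libraries in every role group, with 98.7 against 134 CPM on average in centromeric chromatin and 19.0 against 78.9 CPM in the constitutive network.

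Per length of transcript (CPM per kilobase of the longest coding transcript in GENCODE M21), Cenpa had the highest mean level of the 38 genes at both ages, 16.5 at P30 and 45.9 at P6. Next at P30 came Bub3 (15.8), Cenpv (13.5), Zwint (12.7) and Cenpb (10.7), and next at P6 came Pmf1 (26.5), Bub3 (21.1), Zwint (20.3) and Spc25 (20.2). The P30 order is that of means and need not hold in each library, since Cenpa ran from 18.03 to 30.6 CPM there. Spc25 thus stood among the most abundant transcripts of the kinetochore at P6, whereas its level per kilobase at P30 was 0.487.

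Ratios of counts between genes of the same step need no library scaling, and 1 was added to each count. The added 1 draws a ratio toward equality, most where a gene had few reads, as Ska1 did at P30 (1, 2 and 0 reads). In all, 14 pairs were compared by an exact two-sided permutation test over all 35 assignments of the 7 libraries. The smallest p this design allows is 0.0286, which became 0.0364 after Benjamini-Hochberg adjustment over the 14 pairs, and 11 pairs reached it. The pairs were chosen with earlier results of these data known. Their p-values therefore describe how the libraries part and are no independent evidence that the genes differ. Between Bub3 and Bub1 the log2 ratio was 6.50 ± 0.975 at P30 (SD, n = 3) and 2.09 ± 0.317 at P6 (SD, n = 4), a difference of 4.40 (exact permutation p = 0.0286). The ratio of Mad1l1 to Mad2l1 was 2.17 ± 0.187 at P30 and -0.24 ± 0.344 at P6 on the same scale. These ratios are of counts, not per length. Per kilobase of the longest coding transcript, Mad1l1 was at 5.25 and Mad2l1 at 0.404 at P30, and at 6.89 and 2.85 at P6. That transcript has 2640 bases for Mad1l1 and 7557 for Mad2l1, and which transcripts were present was not tested. The order at P6 depends on these lengths, since in CPM Mad2l1 was the higher there (21.5 against 18.2). Within the NDC80 complex Spc25 lost ground to Spc24, with a log2 ratio of -2.79 ± 1.42 at P30 and 0.69 ± 0.324 at P6, and P30c lay lowest at -4.43; the difference of -3.48 was -2.66 without P30c, where Spc25 had 1 read. For the heads, Ndc80 to Nuf2 gave -0.64 ± 0.989 at P30 and -0.59 ± 0.176 at P6 (exact permutation p = 0.886), and the P30 values ran from -1.58 to 0.39, too wide to show whether this ratio changed.

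Of the other pairs at the smallest p, Mis12 gained on Dsn1 by 3.52, Bub1b on Bub1 by 1.15 and Cenpb on Cenpa by 2.16 on the log2 scale. Zwilch lost 2.92 against Zwint, with log2 ratios of -6.57 ± 0.525 at P30 and -3.65 ± 0.128 at P6, and Cenpe lost 1.98 against Cenpf, with -3.80 ± 0.353 at P30 and -1.82 ± 0.387 at P6. The ratio of Cenpa to its chaperone Hjurp was 5.03 ± 0.604 at P30 and 6.31 ± 0.213 at P6. For Cenpc1 to Cenpa and Cenpa to Mis18a the groups did not overlap, but the exact permutation p was 0.0571 for each (adjusted 0.0615), with differences of 1.05 and 0.58.

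**Figure D4:**
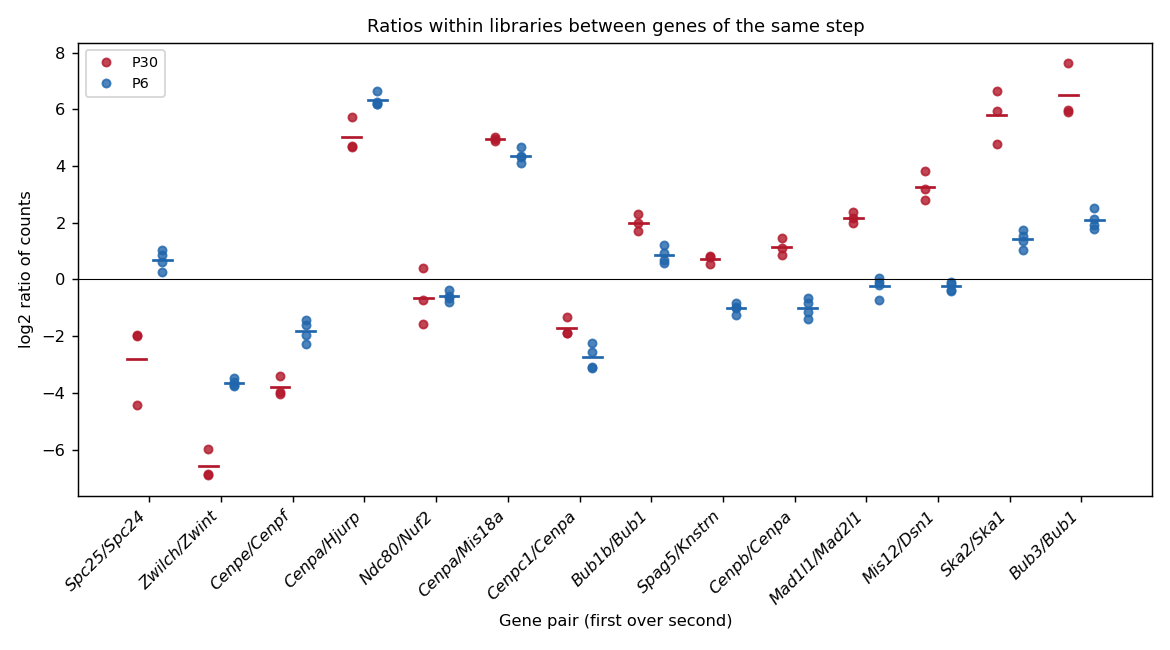
Log2 ratio of raw counts (1 added to each) of 14 gene pairs in every library, ordered by the difference between ages; red points are P30, blue points P6, and lines the means. P30 and P6 overlap for Ndc80 over Nuf2 and are apart in the other 13 pairs.

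A further 5 genes of the rule, Mis18a, Sgol2a, Ska2, Ska3 and Knstrn, had a row under an older symbol, matched through RefSeq synonyms, and are not counted among the 38. All were lower at P30. Mis18a, the partner of Oip5, fell by 2.15 ± 0.33 on the log2 scale, Ska3 by 3.16 ± 0.37, and Knstrn, the partner of Spag5, by 4.93 ± 0.38, to 0.926 ± 0.622 CPM at P30 against 29.1 ± 5.72 CPM at P6. Ska2 was at 6.35 ± 0.964 CPM in P30 cells and 12.5 ± 3.79 CPM in P6 cells, and Sgol2a at 9.32 ± 1.33 CPM in P30 cells and 13.3 ± 1.95 CPM in P6 cells. Ska2 gained on Ska1 by 4.38 and Spag5 on Knstrn by 1.74 (log2 ratios; exact permutation p = 0.0286 for each).

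Genes that act with the kinetochore were taken from 4 other lists. All 11 genes of the chromosomal passenger complex and the mitotic kinases were lower, with a median log2 fold change of -4.71. Aurkb, the kinase that corrects wrong attachments, fell to 0.595 ± 0.353 CPM at P30 against 10.7 ± 1.76 CPM at P6, and its scaffold Incenp to 3.44 ± 1.09 CPM at P30 against 12.5 ± 2.87 CPM at P6. Of 24 further kinetochore and microtubule partners, 14 were lower and 4 higher (median -0.74), against 27.8% lower and 26.3% higher among all genes tested. The lower ones include Casc5 (KNL1, the checkpoint scaffold of the outer kinetochore, -3.72 ± 0.47) and Kntc1 (ROD, a partner of Zwilch, -4.16 ± 0.44), whereas Zw10, the remaining subunit of the RZZ complex, rose to 37.7 ± 6.56 CPM at P30 against 20.0 ± 1.57 CPM at P6. The microtubule plus-end proteins Clasp1 and Clasp2 also rose, by 0.63 ± 0.15 and 1.21 ± 0.14 on the log2 scale.

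Downstream of the checkpoint, 10 of 21 genes of the anaphase-promoting complex and its regulators were lower and 3 higher (median -0.25), against the same 27.8% and 26.3% of all genes. Cdc20, the activator that the checkpoint inhibits, fell by 4.06 ± 0.38, and Trip13, an ATPase that takes the checkpoint complex apart, by 3.79 ± 0.30, whereas Mad2l1bp (p31comet), the adaptor of Trip13, rose by 0.90 ± 0.17 on the log2 scale. Fzr1 (Cdh1), another activator of the anaphase-promoting complex, had 101 ± 3.96 CPM at P30 and 95.8 ± 6.97 CPM at P6 and did not pass the test (edgeR adjusted p = 0.515). Of 14 cohesin genes 5 were lower and 3 higher (median -0.25), counts near the shares of all genes (27.8% lower and 26.3% higher). With library totals 8 were lower and 1 higher, while over all 12561 genes 4658 were then lower and 2408 higher; 1 cohesin gene was higher without P6c or without P30a. Esco2 and Cdca5, which establish and hold cohesion after replication, had log2 fold changes of -4.76 ± 0.59 and -5.16 ± 0.56, and the core subunits Rad21, Stag1 and Stag2 fell less, with -0.80 ± 0.11, -0.54 ± 0.10 and -0.58 ± 0.10. The core subunits Smc1a and Smc3 missed the threshold (-0.24 ± 0.11 and -0.26 ± 0.13).

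The P30 libraries differed from each other in what was left. Of the 21 genes lower by at least 4-fold, P30b was the highest P30 library in 17 and P30c the lowest in 15, and 8 of the 38 genes had 3 reads or fewer in at least 1 P30 library. P30b also had the highest sums of endothelial markers, with 452, 632 and 328 CPM in P30a to P30c, and of macrophage and leukocyte markers, with 13.1, 42.2 and 17.5 CPM. The part of these cells in the remaining transcripts was not tested. The authors' deposited table rests on the same libraries and is no separate support. In it 31 of the 38 genes were lower and 1 was higher at an adjusted p under 0.05, and its log2 fold changes differed from those given here by at most 0.108.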

How the data were processed

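Reads were aligned with STAR 2.5.3a to mm10 and counted with featureCounts (Subread 1.5.2), with CASAVA 1.8 upstream, per the submitters' processing notes; the authors deposited raw counts per gene. For annotation, strand setting and multi-mapping reads, the choices made are not stated. The authors' other deposited table gives DESeq2 results, per the file headers: baseMean (a size-factor-scaled signal), log2 fold changes, a Wald score and p-values.

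Columns carry letters that the labels tie to no title number, and were grouped by age. Counts were filtered with filterByExpr, scaled by TMM and fitted with edgeR 4.0.16 (R 4.3.3) by age alone; 12561 genes were tested. SE is the log2 fold change over the root of F. DESeq2 1.42.0, library totals, no filter and leaving out each library were alternatives. The procedure was tried on simulated data in which far fewer genes changed than were called here. False calls at the extent of change seen here were therefore not tested. Coordinates and lengths came from GENCODE M21 (GRCm38); near copies were sought with blastn (95% identity over 200 bases) and exon overlaps from 50 bases up. All 38 genes are named or counted; lists, genes and pairs were chosen with earlier results of these data known. Files hold 23337 genes.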

Additional observations from a re-analysis of the deposited data

Results flagged for a closer look

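Within the 4 P6 libraries, 52 sets of values (38 gene levels and 14 ratios) were examined for a library far from the others, and chance sets off about 1 in 20 of these. Cenpm stood out because P6a, at 4.70 CPM, lay below the other P6 libraries at 9.42 to 10.3 CPM, a gap of 0.843 of the whole range. Sgol1 stood out because P6a, at 1.90 CPM, lay below the others at 4.73 to 5.06 CPM, a gap of 0.894 of the range. P6a had the fewest counts of all libraries (10594932); whether depth bears on this was not tested.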

How the results depend on the processing

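The number of the 38 genes lower at P30 was 29 to 31 with 1 library left out, and 1 gene was higher in each of these fits. With library totals in place of TMM, all genes had a median of -0.20 (log2; -0.02 with TMM); Mis12 then had -0.034, and cohesin genes gave 8 lower and 1 higher (5 and 3 with TMM; 1 to 2 higher with 1 library left out). With 1 library left out, Cenpo ran from -0.31 to 0.16 (0.065 without P6d, 0.16 without P30a) and the Ndc80 to Nuf2 difference from -0.57 to 0.42 (0.022 without P6d, 0.42 without P30c); the cause was not tested. Among refits of single genes, 362 kept direction and call, 10 lost a call (Nsl1 and Mad1l1), 5 gained one (Cenpv, Cenpq and Cenpc1) and 3 changed sign without a call. Ratio tests cannot reach 0.05 with a library left out, so only their values were compared. No paired analysis was possible because the count columns carry letters that the labels do not tie to the numbers in the titles. Genes with few P30 reads, foremost Ska1 and Cenpk, are limited by counting. Oip5, Cenph, Cenpi, Cenpm and Zwilch also had at most 9 reads in each P30 library. Spc25 (19, 17 and 1 reads in P30a to P30c) and Ndc80 (16, 14 and 1) are limited by spread between the P30 libraries as well.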
